A study of Mus musculus with 10 samples.

Results

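The genes described here are 9 transcripts that bone morphogenetic proteins (BMPs) and transforming growth factor beta (TGF-beta) are known to induce: Id1, Id2, Id3, Id4, Smad6, Smad7, Bambi, Skil and Ccn2. They were listed by name. All 9 were found among the 19938 genes of the array that carried exactly 1 gene symbol, each through a single probe set (the group of probes that reads 1 transcript). The study measured transcripts in cultured mouse neurons with and without SP600125, a compound that inhibits the JUN N-terminal kinases (JNK), on Affymetrix whole-transcript arrays with 1 array per sample. The cells carried the strain label 129Sv-C57Bl/6 and the cell type label Terminally differentiated Neurons (TN) in both groups. The control group of 5 samples, replicates a to e, received the solvent DMSO. The treated group, also 5 samples named a to e, received SP600125 at 25 µM. Each agent was added 3 times, 2 hours apart, and no group was left without solvent. The labels also give a batch, which the series' design text says is the batch of SP600125: samples a and b of either group carry batch 1, the rest batch 2. The labels call the samples biological replicates without naming separate cultures or animals, so the p-values rest on a spread among samples that may be technical only.

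BMP and TGF-beta ligands bind pairs of serine/threonine kinase receptors, which phosphorylate the receptor-regulated Smads. These enter the nucleus with Smad4 and act on genes that hold Smad-binding elements. They do so in cooperation with other factors such as AP-1, the dimers of Jun and Fos proteins. Of these, Jun is phosphorylated by JNK. In the nervous system BMP signalling through the Id genes is known to hold back neuronal differentiation of progenitors and to favour astrocytes, while the inhibitory Smads, Bambi and Skil are induced by the pathway and dampen it.

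All values are log2 expression values as deposited, so a difference of 1 is a doubling of signal. Jun, a gene that its own product and JNK activate, stood at 8.53 ± 0.02 (SD, n = 5) with DMSO and at 7.97 ± 0.12 with SP600125. It fell by 0.56 on the log2 scale (SE 0.06, limma adjusted p = 7.99e-05). Genes of similar signal, with a mean between 8 and 9, had a median difference of -0.24, and 1140 of those 1719 genes fell. After cyclic loess, a scaling that removes differences that depend on signal level, the Jun difference was -0.37. Jun was called under each of the 5 scalings compared below. All 10 pan-neuronal markers checked, among them Tubb3, Map2 and Stmn2, had mean signals above the 95th percentile of the olfactory receptor genes, used here as genes that these cells should lack. So did 9 of 10 astrocyte markers, 9 of 9 fibroblast and mesenchymal markers and 7 of 7 neural progenitor markers, but only 1 of 6 microglia markers. Passing that level is a low bar, since the median of all genes, 5.98 with DMSO and 5.94 with SP600125, also lay above it. On this measure the cultures held transcripts of other cell types beside the labelled neurons. In such bulk samples fewer cells of a type cannot be told apart from less RNA per cell. Signal was less spread after SP600125: the SD of gene values within an array was 1.81 ± 0.03 with DMSO and 1.68 ± 0.03 with SP600125 (exact two-sided permutation test, p = 0.00794, n = 5 per group, the smallest p this design can give). The 95th percentile of the olfactory receptor genes stood at 5.27 ± 0.11 with DMSO and 5.67 ± 0.06 with SP600125 (exact two-sided permutation test, p = 0.00794). Bright genes thus tended to read lower and dim genes higher after treatment.

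Of the 9 genes, Id2 rose and Skil and Ccn2 fell after SP600125, and the other 6 did not pass the threshold (limma with drug batch as a term, Benjamini-Hochberg adjusted p under 0.05 over all genes). Over all genes 46.9% passed, 17.0% upward and 29.9% downward, so 3 of 9 is no more than the share of the whole array. The median difference of the 9 genes was -0.07 on the log2 scale, against -0.03 for all genes, and 7 of the 9 differences had a negative sign. The treated and the control arrays did not overlap for 2 of the 9 genes, Skil and Ccn2, against 23.1% of all genes. The called response genes moved in both directions, and the other 6 had differences between -0.14 and 0.05.

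**Figure D1:**
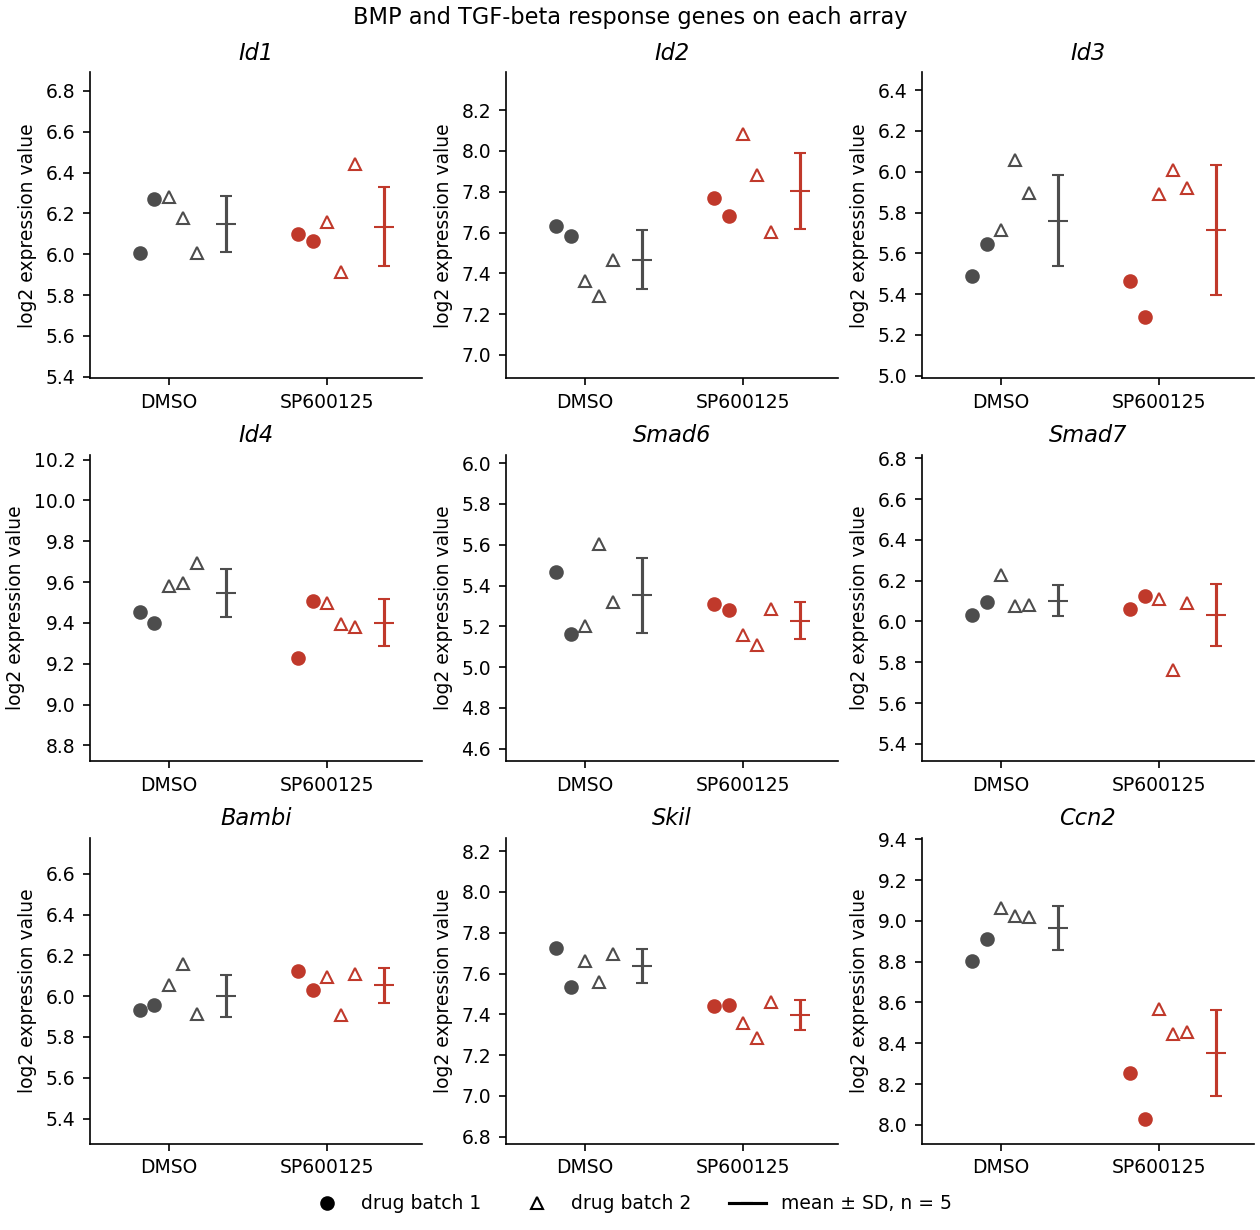
Log2 expression value (vertical axis, each panel spanning the same range of log2 units) of the 9 response genes on each of the 10 arrays, by treatment (horizontal axis). Filled circles are drug batch 1, open triangles drug batch 2, and the bars at the right of each group are the mean ± SD of 5 samples; Ccn2 and Skil lie lower on every SP600125 array than on any DMSO array, and Id2 lies higher within each batch.

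The Id genes encode helix-loop-helix proteins that lack a DNA-binding region and hold E proteins in inactive pairs. They are classical direct targets of BMP-activated Smads. RefSeq sequence (GRCm38.p6) of the 250 bases before the transcription start was used for Id2, Id3 and Id4, 3 members of 1 family of which Id2 was called and the other two were not; the differences between their responses were not tested. Capitals mark matches, on either strand, to the letters GGCGCC (a BMP-responsive Smad element), CAGAC (a Smad-binding element), GGAATG (a TEAD site) and CCAAT (an NF-Y site). The windows are chr12:25096093-25096342 on the minus strand for Id2, chr4:136143572-136143821 on the plus strand for Id3 and chr13:48260866-48261115 on the plus strand for Id4.
Id2: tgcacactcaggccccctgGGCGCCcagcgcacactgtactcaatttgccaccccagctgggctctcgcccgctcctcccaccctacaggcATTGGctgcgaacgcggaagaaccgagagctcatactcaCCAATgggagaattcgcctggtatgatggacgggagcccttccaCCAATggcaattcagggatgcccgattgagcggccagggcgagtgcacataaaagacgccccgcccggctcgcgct
Id3: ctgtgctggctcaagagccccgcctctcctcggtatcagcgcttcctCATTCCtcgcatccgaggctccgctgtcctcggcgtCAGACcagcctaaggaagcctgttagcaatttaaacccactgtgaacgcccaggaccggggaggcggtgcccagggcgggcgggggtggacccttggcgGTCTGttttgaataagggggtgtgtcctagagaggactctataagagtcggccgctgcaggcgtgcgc
Id4: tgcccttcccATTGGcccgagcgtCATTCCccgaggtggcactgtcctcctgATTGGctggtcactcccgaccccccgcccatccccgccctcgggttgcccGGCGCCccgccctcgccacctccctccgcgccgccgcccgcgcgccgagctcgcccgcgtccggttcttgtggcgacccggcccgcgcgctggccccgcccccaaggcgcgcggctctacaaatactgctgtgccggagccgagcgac

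The Id2 window held 1 match to GGCGCC and 3 to CCAAT, the nearest of them 76 to 72 bases before the start. In the Id4 window there were 1 match to GGCGCC, 1 to GGAATG and 2 to CCAAT, and in the Id3 window 2 matches to CAGAC and 1 to GGAATG. None of the 3 windows held TGANTCA or TGACGTCA, the AP-1 and CRE letters, or the Smad palindrome GTCTAGAC. Counted over 32851 RefSeq promoter windows of the same length, 9.59% held GGCGCC, 42.2% CAGAC, 12.6% GGAATG, 33.8% CCAAT, 6.75% TGANTCA, 1.55% TGACGTCA and 0.167% GTCTAGAC. These are matches of letters only and do not show that a factor bound there.

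Id2, the Id gene with known roles in both neural progenitors and developing neurons, read 7.63, 7.58, 7.36, 7.29 and 7.47 in DMSO samples a to e (probe set 10399691). After SP600125 it read 7.77, 7.68, 8.08, 7.88 and 7.60. The groups overlapped by a narrow margin, since the highest control, sample a, lay just above the lowest treated sample, e, but within each drug batch every treated array lay above every control. Id2 rose by 0.34 on the log2 scale (SE 0.09, 95% confidence interval 0.14 to 0.54, n = 5 per group, limma adjusted p = 0.00999), a 1.26-fold rise. The rise ranked 1050th among the differences of 19938 genes. It ran against genes of similar signal: of the 3363 genes with a mean between 7 and 8, the median difference was -0.22, and Id2 lay above 98.6% of them.

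By drug batch, the Id2 difference stood at 0.12 for batch 1 and at 0.48 for batch 2. The interaction of treatment and batch was 0.37 (SE 0.17) for Id2, with an unadjusted p of 0.0482 and an adjusted p of 0.534 in limma. No gene of the array passed the threshold for this interaction (0% of 19938 genes in limma, with 1852 genes at an unadjusted p under 0.05), and of the 9 genes only Id2 was under that unadjusted level.

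Id4, an Id protein known from neural stem cells and astrocytes, read 9.45, 9.40, 9.58, 9.60 and 9.69 in DMSO samples a to e (probe set 10404975). The SP600125 samples read 9.23, 9.51, 9.50, 9.40 and 9.38. The groups overlapped, mainly through drug batch 1, while in drug batch 2 all treated arrays lay below all controls. The difference was -0.14 (SE 0.07, 95% confidence interval -0.29 to 0.00, limma adjusted p = 0.0952) and did not pass the threshold. Without SP600125 sample b it passed, at -0.20 with a limma adjusted p of 0.0133. Genes with a mean signal between 9 and 10 had a median difference of -0.21, and 67.9% of them lay below Id4.

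Id1, the most widely used readout of BMP signalling, read 6.01, 6.27, 6.28, 6.18 and 6.01 with DMSO and 6.10, 6.06, 6.16, 5.91 and 6.44 with SP600125 (probe set 10477169). Its groups overlapped throughout and differed by -0.01 (SE 0.09, 95% confidence interval -0.21 to 0.19, limma adjusted p = 0.912).

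Id3, which often moves together with Id1, read 5.49, 5.65, 5.72, 6.06 and 5.89 with DMSO and 5.47, 5.29, 5.89, 6.01 and 5.92 with SP600125 (probe set 10509163). Its treatment difference was -0.05 (SE 0.08, 95% confidence interval -0.22 to 0.12, limma adjusted p = 0.644). The samples separated by drug batch rather than by treatment: every array of batch 2, treated or not, lay above every array of batch 1. The batch term for Id3 was 0.44 (batch 2 minus batch 1, SE 0.08, limma adjusted p = 0.0241). Id3 was the only one of the 9 genes past the threshold for batch, where 144 genes, 0.722% of the array, passed. Ccn2 came next, 0.26 higher in batch 2 (SE 0.07, limma adjusted p = 0.0912). Since the DMSO arrays differed between batches as well, the term describes sets of samples and not the drug alone.

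Smad6 and Smad7 are the inhibitory Smads, induced by the pathway they block. Smad6 acts mainly on BMP receptors, and Smad7 on both BMP and TGF-beta receptors. Smad6 read 5.47, 5.16, 5.20, 5.61 and 5.32 with DMSO and 5.31, 5.28, 5.16, 5.11 and 5.28 with SP600125 (probe set 10594418), values near the 95th percentile of the olfactory receptor genes on the DMSO arrays and below it on the SP600125 arrays. The groups overlapped, although 3 control samples, a, d and e, lay above all treated ones. The difference was -0.12 (SE 0.09, 95% confidence interval -0.31 to 0.06, limma adjusted p = 0.245).

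The Smad6 promoter window (chr9:64022060-64022309, minus strand, RefSeq GRCm38.p6) held none of the 7 letter patterns. A GTCTAGAC lay across the transcription start itself, 4 of its bases before and 4 after, and 0.213% of all promoter windows of 300 bases held that palindrome. No sequence is given for Id1, Smad7, Bambi, Skil and Ccn2.

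Smad7 read 6.03, 6.10, 6.23, 6.08 and 6.08 with DMSO and 6.06, 6.12, 6.11, 5.76 and 6.09 with SP600125 (probe set 10456745). Only SP600125 sample d stood apart from the other 9 arrays. The difference was -0.07 (SE 0.08, 95% confidence interval -0.24 to 0.09, limma adjusted p = 0.449), and without sample d it was -0.00 (adjusted p = 0.987). The SD over 5 arrays was 0.07 with DMSO and 0.15 with SP600125.

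Bambi, a transmembrane pseudoreceptor that lacks the kinase region and blocks receptor pairing, read 5.93, 5.96, 6.05, 6.16 and 5.91 with DMSO. With SP600125 it read 6.12, 6.03, 6.10, 5.91 and 6.11 (probe set 10453604). The groups overlapped over most of their range and differed by 0.05 (SE 0.07, 95% confidence interval -0.09 to 0.20, limma adjusted p = 0.549).

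Skil encodes SnoN, a nuclear partner of Smad proteins that represses their targets and is itself induced by TGF-beta. In postmitotic neurons SnoN is also known to promote axon growth. It read 7.72, 7.53, 7.66, 7.56 and 7.69 in DMSO samples a to e and 7.44, 7.44, 7.36, 7.28 and 7.46 after SP600125 (probe set 10491300). Every treated array lay below every control. Skil fell by 0.24 on the log2 scale (SE 0.06, 95% confidence interval -0.37 to -0.10, limma adjusted p = 0.00816), a 1.18-fold fall. This fall was the size of that of other genes with similar signal, whose median difference was -0.22: 46.1% of the 3363 genes with a mean between 7 and 8 differed more negatively than Skil or equally. After cyclic loess, a scaling that removes differences that depend on signal level, Skil differed by -0.06 (adjusted p = 0.509) and was not called.

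Ccn2, formerly Ctgf, encodes connective tissue growth factor, a secreted matrix protein induced by TGF-beta Smads and also by the YAP and SRF coactivator systems. It read 8.80, 8.91, 9.07, 9.02 and 9.02 in DMSO samples a to e, and 8.26, 8.03, 8.57, 8.45 and 8.46 after SP600125 (probe set 10362201). The groups lay well apart, and the highest treated array, c, was below the lowest control, a. Ccn2 fell by 0.61 on the log2 scale (SE 0.07, 95% confidence interval -0.75 to -0.47, limma adjusted p = 6.25e-05), a 1.53-fold fall. The fall was 0.72 in drug batch 1 and 0.55 in batch 2 on that scale. It ranked 208th among all falls. Among the 1719 genes with a mean signal between 8 and 9, whose median difference was -0.24, Ccn2 lay below 97.2%.

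**Figure D2:**
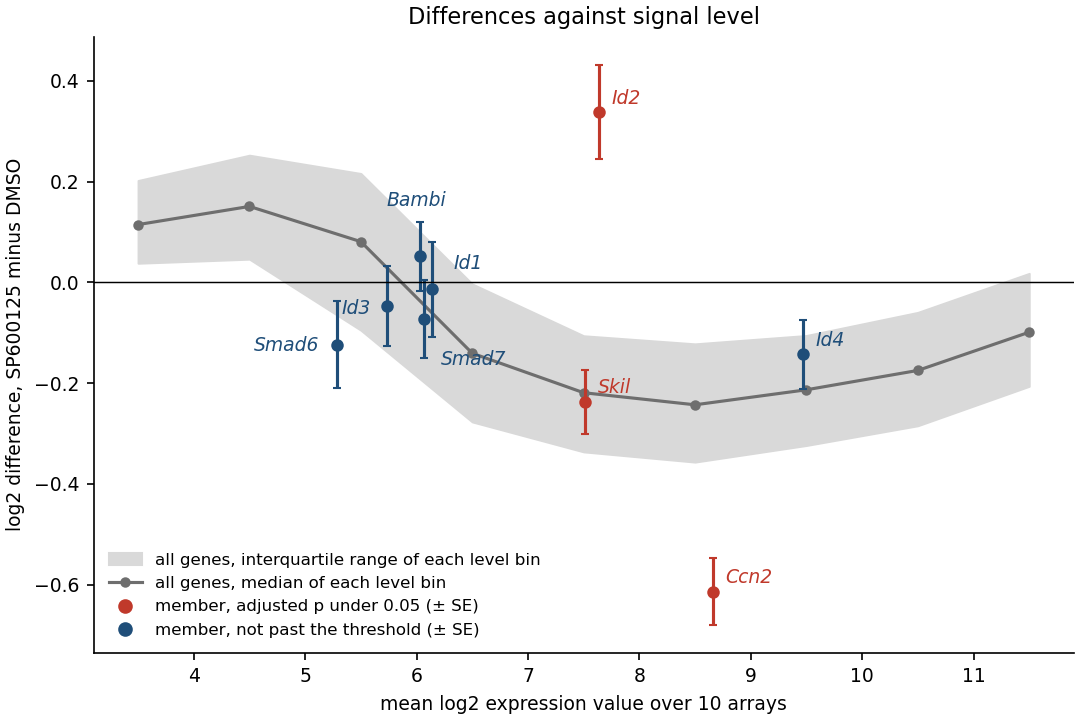
Difference between SP600125 and DMSO (vertical axis, log2) against mean log2 expression value over 10 arrays (horizontal axis). The grey line and band are the median and the interquartile range of all genes in each level bin of width 1, and the points are the 9 response genes ± SE, red where the adjusted p was under 0.05; Skil, at -0.24, lies on the grey line, Id2 far above it and Ccn2 far below.

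Within drug batch 1, with 2 arrays per group, the groups did not overlap for 5 of the 9 genes (Id2 and Bambi higher, Id3, Skil and Ccn2 lower), against 59.0% of all genes. Within batch 2, with 3 per group, they did not overlap for 4 (Id2 higher, Id4, Skil and Ccn2 lower), against 51.0% of all genes. Both counts are near or below those of the whole array. Id2, Skil and Ccn2 lay on the same side in both batches.

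The calls depended on how the arrays were scaled to each other. After cyclic loess 27.2% of all genes passed, and of the 9 genes Id2 (0.52, limma adjusted p = 0.0023) and Ccn2 (-0.44, adjusted p = 0.0012) did. After quantile normalization 30.0% of genes passed. There, Id2 rose by 0.47, Ccn2 fell by 0.48 and Smad6 fell by 0.25 on the log2 scale (limma adjusted p = 0.0375), while Skil did not pass (-0.11, adjusted p = 0.171). Centring the arrays on their medians over all probe sets moved the median of all genes from -0.03 to -0.13, and 50.7% passed. Under it Id2 read 0.24 and was not called (limma adjusted p = 0.0546), while Id4 fell by 0.24, Smad6 by 0.22, Skil by 0.34 and Ccn2 by 0.71 on the log2 scale. With arrays centred on the named genes instead, 47.7% of genes passed and the same 3 of the 9 were called as in the deposited values. Ccn2 fell under each of these 5 scalings. Id2 was higher under each of them, with the call missing under centring on all probe sets, and Bambi turned negative there (-0.05).

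**Figure D3:**
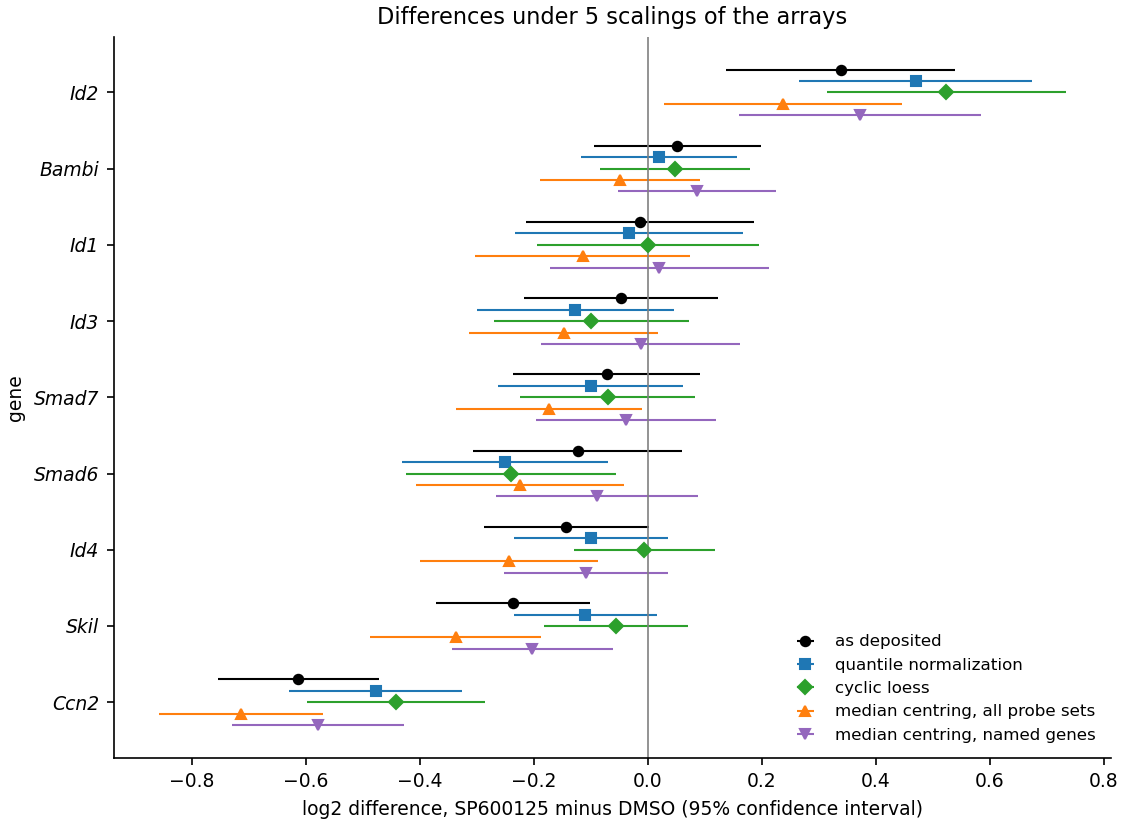
Difference between SP600125 and DMSO (horizontal axis, log2) of each of the 9 genes (vertical axis) under 5 scalings of the arrays, shown by colour and symbol; horizontal bars are 95% confidence intervals from limma, n = 5 per group. Ccn2 lies below 0 and Id2 above 0 under each scaling, while the intervals of Skil include 0 after quantile normalization and cyclic loess.

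Genes known to act around the 9 were taken from lists by role. The 126 listed genes, each counted once, had a median difference of -0.09; 17 rose, 40 fell and 69 did not pass. Here too the shares are close to those of the whole array.

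Among 19 ligands, 4 rose, 5 fell and 10 did not pass, with a median of -0.05. Gdf11, a TGF-beta family factor that limits neurogenesis, fell by 0.67 (SE 0.09, limma adjusted p = 0.000207). Tgfb3 fell by 0.49 and Bmp7 by 0.38 on the log2 scale, and these 3 falls passed under each of the 5 scalings. Tgfb3 read 6.12 with DMSO and 5.63 with SP600125, where the olfactory receptor 95th percentile stood at 5.67. Bmp4, the ligand most used to induce Id genes, rose by 0.19 (limma adjusted p = 0.0227) but did not pass after centring on all probe sets.

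Of 17 receptors and co-receptors, 5 rose, 4 fell and 8 did not pass (median 0.02). Tdgf1, a Nodal co-receptor, rose by 0.46 (limma adjusted p = 0.000253) and Hjv, a BMP co-receptor, by 0.29, while the BMP co-receptor Rgmb fell by 0.40. The type I BMP receptor Bmpr1a rose by 0.23 and the type II receptor Bmpr2 fell by 0.26. After cyclic loess 3 of the 17 rose and none fell, so the falls among receptors did not hold there. The rises of Acvrl1, Eng and Hjv were not called there either. Of the genes named here, Hjv was called under 2 of the 5 scalings, Rgmb under 3 and Tdgf1 under all 5. Tdgf1 (5.37 with DMSO, 5.84 with SP600125) and Hjv (5.39 and 5.67) read near the 95th percentile of the olfactory receptor genes. That percentile itself stood at 5.27 with DMSO and 5.67 with SP600125. Acvrl1 (5.19 and 5.47) and Eng (5.09 and 5.30) read below it in each group.

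The 6 signal-carrying Smads held no rise and 2 falls, Smad2 (-0.30, limma adjusted p = 0.0018), which carries TGF-beta signals, and Smad1 (-0.18, adjusted p = 0.0464), which carries BMP signals. Their median was -0.12. After cyclic loess neither fell, Smad1 stood at 0.00, and the shared partner Smad4 rose by 0.24. Of 17 secreted antagonists, 2 rose, 3 fell and 12 did not pass (median 0.03). The 3 falls were Fstl1, a follistatin-like secreted protein (-0.63, limma adjusted p = 2.78e-05), Sostdc1, a BMP and Wnt antagonist (-0.48), and Chrdl1, a chordin-like BMP antagonist (-0.25). Each of them passed under all 5 scalings, although Sostdc1 and Chrdl1 read near or below the 95th percentile of the olfactory receptor genes. Sostdc1 stood at 5.44 with DMSO and 4.96 with SP600125, and Chrdl1 at 5.44 and 5.19. The percentile was 5.27 with DMSO and 5.67 with SP600125.

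Of 17 intracellular regulators, 13 fell, 1 rose and 3 did not pass, with a median of -0.22. That median is the one of genes with like signal: between 7 and 8, 2037 of 3363 genes fell and the median was -0.22, and between 8 and 9, 1140 of 1719 fell with a median of -0.24. Skil belongs beside them by function. The deubiquitinase Usp15 fell by 0.41, the phosphatase Ppm1a by 0.35 and the ubiquitin ligase Trim33 by 0.34 on the log2 scale, and these 3 also fell after cyclic loess. The other 10 falls were not called after cyclic loess, where 3 of 17 fell and the median was -0.08. The one rise was Tgif2, a Smad corepressor, at 0.19.

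Of 17 other response genes, 3 rose, 4 fell and 10 did not pass (median 0.01). Col1a1, the type I collagen chain, fell by 0.69 (limma adjusted p = 3.69e-05), Zeb2, a Smad-binding repressor, fell by 0.33, and Hey1, a BMP and Notch target, rose by 0.31. Col1a1 and Hey1 were called under all 5 scalings and Zeb2 under 4, with -0.16 after cyclic loess (adjusted p = 0.0526). Of 13 targets of YAP and SRF, listed because Ccn2 is one of them, none rose and 6 fell, with a median of -0.15. Between 7 and 8, where the mean signal of this list lay, 2037 of 3363 genes fell with a median of -0.22. Thbs1, a matrix glycoprotein, fell by 0.99 (SE 0.12, limma adjusted p = 0.000134), and the smooth muscle genes Tagln and Acta2 fell by 0.64 and 0.62 on the log2 scale. Tagln read 5.95 with DMSO and 5.31 with SP600125, where the olfactory receptor 95th percentile stood at 5.67. Ccn1, the nearest relative of Ccn2 and a YAP target as well, read 0.10 (adjusted p = 0.241), and after cyclic loess it rose by 0.27. Ccn2 and Ccn1 thus did not move alike in these samples, although the difference between them was not tested.

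Among 7 partners of Id proteins, 1 rose, 1 fell and 5 did not pass (median 0.04): the E protein gene Tcf3 fell by 0.22, and Rb1, whose product binds Id2, rose by 0.21 (limma adjusted p = 0.0184). Tcf4 and Tcf12, the other E protein genes, read 0.04 and 0.07 and passed only after cyclic loess. Of 13 proneural and Hes-type factors, 1 rose, 2 fell and 10 did not pass (median -0.02). Olig1 fell by 0.35 and Hes6 by 0.26 on the log2 scale, and Hey2 rose by 0.32, while Hes1 and Hes5 both read -0.02. Tcf3 and Hes6 were called under 3 of the 5 scalings, Hey2 under 2, and Rb1 and Olig1 under 4. Hey2 read 5.57 with DMSO and 5.89 with SP600125, near the olfactory receptor 95th percentile of 5.27 and 5.67.

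**Figure D4:**
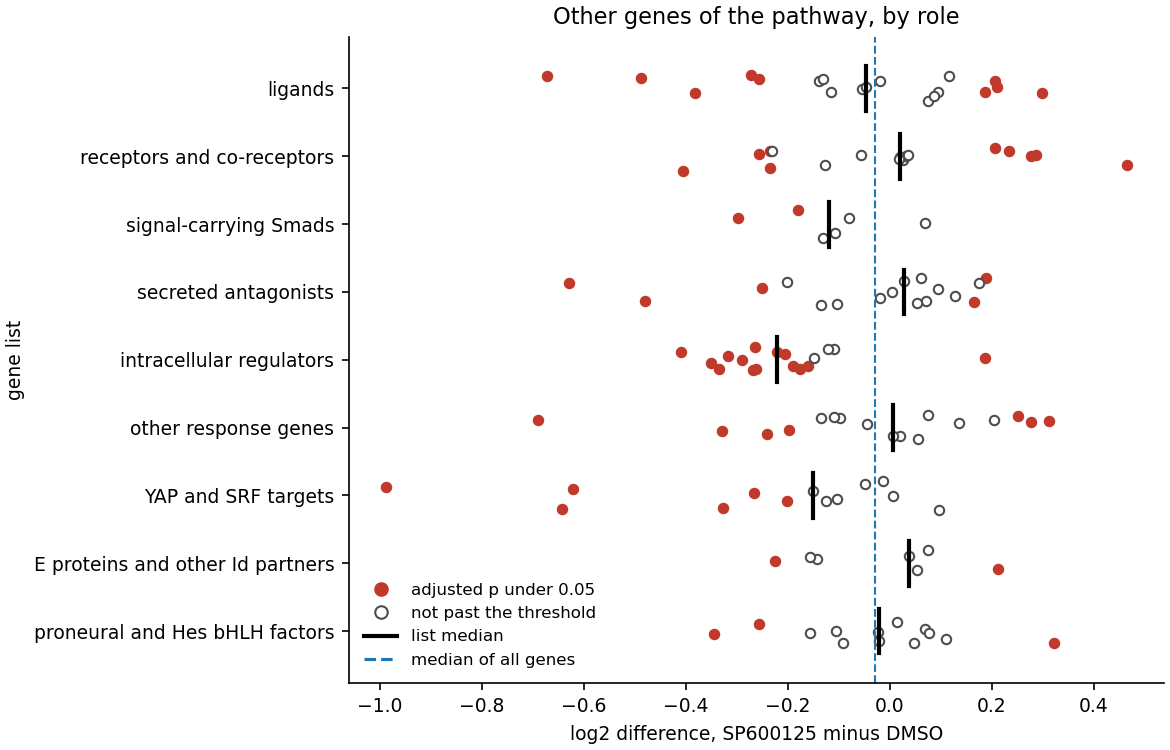
Difference between SP600125 and DMSO (horizontal axis, log2) of the listed genes around the 9 response genes, by role (vertical axis). Each point is 1 gene, red where the adjusted p was under 0.05 and open otherwise, the black bar is the median of the list and the dashed line that of all genes (-0.03); intracellular regulators lie mostly below 0 (median -0.22), while ligands, receptors and antagonists spread to both sides.

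Markers of other cell types moved as well. Of the 9 fibroblast and mesenchymal markers 6 fell and none rose (median -0.43), and their mean signal ranged from 9.04 to 9.12 over DMSO arrays and from 8.63 to 8.76 over SP600125 arrays. Ccn2 and several YAP and SRF targets are strongly expressed in such cells, and Col1a1, Tagln and Acta2 stand in both lists. The 3 fibroblast and mesenchymal markers that did not pass were Dcn (0.005), Lum (-0.11) and Pdgfrb (-0.14). Of the 10 pan-neuronal markers 9 fell and none rose (median -0.46). Their mean signal was 9.07 to 9.40 over DMSO arrays and 8.68 to 9.26 over SP600125 arrays. Falls were common among all genes of like signal: 1140 of 1719 fell between 8 and 9 (median -0.24) and 399 of 620 between 9 and 10 (median -0.21). The 6 falls of 9 fibroblast and mesenchymal markers are near those shares, while the medians of these 2 marker lists were more negative. Astrocyte markers, beside Id4, went both ways, with 2 rises and 4 falls of 10 (median 0.03; 8.53 to 8.59 against 8.50 to 8.59). Of the 7 progenitor markers 2 fell, led by Nes, the nestin gene, which fell by 1.34 on the log2 scale (limma adjusted p = 1.23e-08), and the median was -0.02. Of the 6 endothelial markers 2 rose and 1 fell, and of the 6 oligodendrocyte lineage markers 3 fell. Of the 6 microglia markers 3 rose, and of the 5 pluripotency markers 2 rose. Over all genes 46.9% were called, 17.0% upward and 29.9% downward, and these small lists were not tested against those shares. Rises were more common among dim genes: of those with a mean between 4 and 5, 1261 of 3479 rose. Only 2 endothelial, 1 microglia and 1 pluripotency marker had mean signals above the olfactory receptor 95th percentile. After cyclic loess 1 microglia, 1 endothelial and 2 pluripotency markers rose, and 2 endothelial markers fell. After cyclic loess the fibroblast and mesenchymal median was -0.36 with 5 falls, and the pan-neuronal median was -0.35 with 6 falls. The part of all these markers in the results of Id2, Id4, Skil and Ccn2 was not tested.

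For each of the 9 genes, the 2 genes with the most similar values over the 10 arrays are named as a description, by Pearson's r on log2 values. All points share 10 arrays and, where both genes differ between groups, that difference. Ccn2 was most like Fam50a (r = 0.996) and Rpn1 (0.990), Skil like Taf1b (0.973) and Atp6v1f (0.968), and Id2 like Ccnl1 (0.962) and Sprr2e (0.955). Id4 was most like Cntn3 (0.984) and Egln1 (0.972), Id1 like Lrriq4 (0.923) and Piezo2 (0.915), and Id3 like Tax1bp3 (0.944) and Rplp2 (0.934). Smad6 was most like Fabp2 (0.925) and Adarb2 (0.891), Smad7 like Glis3 (0.943) and Kcnn1 (0.935), and Bambi like Six6 (0.953) and Rinl (0.918). Lrriq4, Fabp2, Six6, Adarb2 and Sprr2e had mean signals of 3.45 to 4.51. These lie below the olfactory receptor 95th percentile, 5.27 with DMSO and 5.67 with SP600125. Cntn3 and Rinl, both at 5.24, lay just under it. Each r was picked as among the highest over many genes and was not tested.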

How the data were processed

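Per the labels, total RNA of each sample was biotin-labelled and hybridised to 1 Affymetrix whole-transcript array. The authors deposited log2 expression values, 1 per probe set and array; the submitters' processing notes name oligo 1.14.0 as the tool. How background, normalization between arrays and probe summarization were handled, and the genome build, is not given in the sources used here. The log2 scale was read from the values, which compress changes of dim genes.

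Of 35556 probe sets, 21789 carried 1 gene symbol in the platform annotation, 1621 several and 12146 none. Each gene took its probe set with the highest mean, giving 19938 genes. Differences were fitted with limma 3.58.1 in R 4.3.3 (lmFit, eBayes, two-sided) on all genes with treatment and drug batch as terms, 7 residual degrees of freedom and Benjamini-Hochberg adjusted p under 0.05. The fit was tested on simulated data. The closest of 20 replicate pairs had a mean absolute log2 difference of 0.113, and replicate pairs correlated at 0.991 to 0.997, so no array was a duplicate of another of its group. The number of arrays limits the precision.

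Up to 3 genes per list were named, those with the largest differences past the threshold, with Jun, the 9 response genes and the 2 genes most correlated with each. Further listed genes (Bmp4, Bmpr1a, Bmpr2, Acvrl1, Eng, Smad4, Tgif2, Ccn1, Tcf4, Tcf12, Hes1, Hes5, Nes, Dcn, Lum and Pdgfrb) were named after their values were seen. The 9 genes and the lists were chosen with earlier results of these data known. Alternatives were 4 other scalings, a filter on dim genes, the mean of a gene's probe sets, array weights, fits without batch or with the replicate letter as a block, 1 batch alone, and leaving out single arrays or both b arrays. Promoter letters were searched on both strands of the RefSeq GRCm38.p6 windows.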

Additional observations from a re-analysis of the deposited data

Results flagged for a closer look

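Smad7 on SP600125 sample d read 5.76, against 6.06 to 6.12 on the other 4 treated arrays. The gap to the nearest array was 0.828 of the range of the 5 values, above the limit of 0.71 used for groups of 5. Of 18 groups of 5 checked (9 genes, DMSO and SP600125), 1 was marked in this way, and chance marks about 1 in 20 such groups. Without that array the difference of Smad7 was -0.00 (limma adjusted p = 0.987), and its call was the same.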

How the results depend on the processing

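Of the 9 genes, 1 rose and 2 fell as deposited. After centring on all probe sets 0 rose and 4 fell (Id4, Smad6, Skil and Ccn2), and after cyclic loess 1 fell (Ccn2). Over all 19938 genes, 1500 rose and 8602 fell after that centring, and 3537 fell after cyclic loess. In drug batch 1 alone, with 2 arrays per group, 0 of the 9 rose and 0 fell in limma. That fit called only 1 gene of the whole array, so its counts and lost calls do not single out the 9. The count of falls was 3 (Id4, Skil and Ccn2) without SP600125 replicate b, without both b arrays, in batch 2 alone and with array weights. In these fits 6355, 6305, 5444 and 6583 of all genes fell. Id2 lost its call after centring on all probe sets and in batch 1 alone (0.24 and 0.12). Skil lost it under quantile normalization, cyclic loess and batch 1 alone (-0.11, -0.06 and -0.19). Ccn2 lost it in batch 1 alone (-0.72, limma adjusted p = 0.102). Id4 passed without both b arrays (-0.21, adjusted p = 0.0157), in batch 2 alone (-0.20, adjusted p = 0.0468) and with array weights (-0.18, adjusted p = 0.0221). The cause of these shifts was not tested, and a fit of 1 batch alone also holds fewer arrays.

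Signs turned only for genes that were never called. Id1 read 0.00054 after cyclic loess, 0.020 after centring on named genes, 0.034 without both b arrays and 0.015 in batch 2 alone. Id3 read 0.032 without both b arrays, 0.050 in batch 2 alone and 0.0063 with array weights. Smad7 read 0.029 in batch 1 alone, and Bambi -0.049 after centring on all probe sets and -0.0032 in batch 2 alone. With single arrays left out, Id1 ranged from -0.092 to 0.053 and Id3 from -0.11 to 0.0031, while Id2 (0.26 to 0.39), Skil (-0.27 to -0.21) and Ccn2 (-0.64 to -0.56) stayed past the threshold. With the replicate letter as a block, Id2 was 0.34 (adjusted p = 0.0209), Skil -0.24 (adjusted p = 0.0169) and Ccn2 -0.61 (adjusted p = 0.00099), and 8252 genes were called against 9351. Deviations of samples with 1 letter correlated at -0.21 to 0.10, and only c correlated best with its own letter. The labels do not say whether the letters pair the samples, and such correlations cannot decide it.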
